A study of Mus musculus with 10 samples.

Results

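The 34 genes described here are known targets of p53, given as a list by symbol. All 34 had a name match among the 48471 genes of the deposited tables, and all 34 passed the filter on low counts that left 15378 genes for testing. They were compared between 2 fractions of cancer-associated fibroblasts (CAFs), the matrix-producing cells of tumour stroma, which were flow-sorted from mouse pancreatic ductal adenocarcinomas (PDAC) as CD90+ (CD90-positive) or CD90- (CD90-negative) and are labelled myCAFs, the myofibroblastic kind. Every tumour grew in a male C57BL/6J mouse from orthotopically transplanted KPC T-LOH organoids, cultured pancreatic cancer cells. In the field's use of that name the cancer cells carry mutant Trp53 and have lost the remaining normal Trp53 allele. Both fractions share this graft, and the labels give no age, treatment or altered allele of the host. There were 5 libraries of each fraction, from 5 tumour pools. The titles name 4, 1, 2, 3 and 1 animals for pools 1 to 5, that is 11 animals, whereas the series text counts 5 male mice, so n is given as pools.

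The protein p53 is a transcription factor that is kept low by the ubiquitin ligase Mdm2 and rises after DNA damage or oncogene stress. It then switches on genes that halt the cell cycle, repair DNA, restrain growth signalling or start apoptosis, and also Mdm2 itself, which closes a feedback loop. Cancer cells that lost p53 are known to lack this induction, whereas host stromal cells normally keep it.

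The DNA element that p53 binds is a pair of 10-base elements, each with 3 purines, a core of C, A or T, A or T and G, and 3 pyrimidines. To show this element on the members themselves, the 250 bases before each RefSeq start (GRCm38.p6) were searched for 2 such elements joined without a gap, with both cores exact and up to 3 of the 12 outer bases off. The element reads the same on both strands, so 1 search covers both. Of the 34 members, 26 had a promoter entry, and 6 of these 26 held a match, against 0.566% of the 27025 genes with an entry. With at most 2 outer mismatches the count was 3 of 26 against 0.163%, and with at most 1 it was 1 of 26 against 0.0555%. The limit on mismatches was set after these counts were seen. The 6 matches are shown because they include the classical arrest gene Cdkn1a and 2 members that were lower in the CD90-negative fraction (Zfp365 and Aen); capitals mark the 20-base match and lower case its flanks, 5′ to 3′ on the strand of the gene.
Cdkn1a: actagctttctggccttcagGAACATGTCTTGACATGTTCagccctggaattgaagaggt
Zfp365: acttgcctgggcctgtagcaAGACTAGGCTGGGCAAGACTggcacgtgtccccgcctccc
Ckap2: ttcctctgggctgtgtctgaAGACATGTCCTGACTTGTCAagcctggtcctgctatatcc
Aen: aagccGGGCTTGTCCGGGCAAGGAGcttcc
Bbc3: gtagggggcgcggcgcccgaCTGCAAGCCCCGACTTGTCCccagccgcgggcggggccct
Tigar: gcggcGGTCTAGCTCTGGCAAGACTccagg
On GRCm38.p6 these windows lie at chr17:29090908-29090967 (Cdkn1a, plus strand), chr10:67912686-67912745 (Zfp365, minus strand), chr8:22185983-22186042 (Ckap2, minus strand), chr7:78895932-78895961 (Aen, plus strand), chr7:16309466-16309525 (Bbc3, plus strand) and chr6:127109741-127109770 (Tigar, minus strand). The match of Aen lies in an annotated exon of another Aen transcript and that of Tigar in an exon of the noncoding gene Platr31, so shorter flanks are shown there. The match of Cdkn1a had 1 outer mismatch, those of Zfp365 and Ckap2 had 2, and the other 3 had 3. The first base of the match lay 51 bases before the start in Cdkn1a, 63 in Zfp365, 97 in Bbc3, 121 in Aen, 203 in Ckap2 and 213 in Tigar. A match is a description of the letters and not evidence of binding.

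The libraries held 11.7 M to 47.7 M estimated counts. Mitochondrial rRNA took 35.6% to 84.4% of the gene-assigned counts in CD90-negative and 10.5% to 44.8% in CD90-positive libraries, which left 3.71 to 19.8 M and 4.57 to 28.5 M counts on nuclear protein-coding genes. Markers of several other cell types differed between the fractions. Of 10 epithelial markers 7 were called higher in the CD90-negative fraction and 0 lower, and their summed level was 718 to 3015 against 180 to 1629 CPM (counts scaled to a common library size by TMM). Of 10 fibroblast markers 9 were called lower, at a sum of 4061 to 20469.9 against 32461 to 54048 CPM, and each of the 10 was detected in all 10 libraries. Of 6 endothelial markers 3 were called higher (31.8 to 258 against 26.8 to 37.5 CPM in sum, with the 258 in pool 2). None of the 7 tested leukocyte markers was called by edgeR (1 at an unadjusted p under 0.05; sum of 17.9 to 39.6 against 9.04 to 17.0 CPM). Of 6 pericyte markers 0 were called (5 at an unadjusted p under 0.05, 4 of them lower; sum of 12.0 to 159.6 against 48.5 to 81.2 CPM, the highest in pool 2). Of 4 mesothelial markers Msln was called higher (edgeR adjusted p = 0.00774) at a summed level of 152 to 243 against 165 to 282 CPM, and of 2 tested acinar markers Ctrb1 was (adjusted p = 0.0380; sum of 1.66 to 24.5 against 1.26 to 3.83 CPM, higher in 5 of 5 pools). Of the epithelial markers, Cldn7 was at 0 in 2 CD90-positive libraries, and of the leukocyte markers, Adgre1 was at 0 in 5 of the 10 libraries. The part of these cell types and of the mitochondrial share in the results below was not tested. In bulk libraries, fewer cells of a type and less RNA per cell cannot be told apart.

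In CD90-negative cells 7 members were lower, 2 each among the arrest and the feedback genes and 1 each among the apoptosis, repair and stress genes, and 2 apoptosis genes were higher. Across all genes tested, 12.9% were called between the fractions (adjusted p under 0.05, edgeR's quasi-likelihood test with the pool as a block), 5.83% higher and 7.05% lower. Of the 34 members, 9 were called (26.5%). The 7 lower members, 20.6% of the list, were Ccng1, Btg2, Zmat3, Phlda3, Aen, Ercc5 and Zfp365. The 2 higher members, Pmaip1 and Perp, made up 5.88%, a share near the background of 5.83%. The median log2 fold of CD90-negative over CD90-positive was -0.35 over the members and 0.04 over all genes tested, and it lay below 0 for 23 of 34 members (67.6%, against 48.0% of all genes tested). By pool the members' median log2 difference was -0.31, -0.42, -0.12, -0.47 and -0.17 in pools 1 to 5. In all 5 pools, 11 members were lower (32.4%, against 14.9% of all genes tested) and 2 were higher (5.88%, against 13.5%). The libraries of the fractions did not overlap for 4 members, all lower (Mdm2, Phlda3, Aen and Ercc5), or 11.8% of the list against 7.93% of all genes tested, of which 4.62% were lower and 3.32% higher. At an unadjusted p under 0.05 stood 16 of 34 members, against 26.9% of all genes tested.

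Most calls lay near the threshold and were lost with fewer pools, while the folds changed less when 1 pool was left out. Over the 5 fits that each left out 1 pool, the members' median log2 fold was -0.53 to -0.32. Among the called members without overlap, the log2 fold of Aen was -0.81 to -0.66, Ercc5 -1.01 to -0.72 and Phlda3 -0.92 to -0.70. The 9 called members kept their direction in each of these fits. Leaving out a pool left 0 members called lower without pool 1 or pool 4, 1 without pool 2 and 4 without pool 3 or pool 5; Perp stayed called higher in each of these 5 fits. Over all genes, lower calls were 367 without pool 1, against 1084 with all pools. Other settings moved some folds more. Over all alternatives, fits with fewer pools included, the log2 fold of Pmaip1 was 0.71 to 1.83 and of Zfp365 -4.78 to -1.36. With the deposited effective lengths as an offset, the log2 fold of Aen was -0.33 (SE 0.25, edgeR adjusted p = 0.489). That of Ercc5 was -0.63 (SE 0.29, edgeR adjusted p = 0.218) in the same fit. Aen, Ercc5 and Phlda3 lost their call there. Without the block for the pool, 1 member was called lower (Phlda3) and 0 higher, and with the share of mitochondrial rRNA added to the model 0 members were called in either direction. That model called 0 of all genes (882 at an unadjusted p under 0.05, among them 4 members), and in it the median log2 fold was 0.02 over the members and 0.15 over all genes. The share was higher in the CD90-negative library of every pool, so that model can hardly separate it from the fraction. Its estimates were also less precise, with an SE for Btg2 of 0.50 against 0.17 in the main fit.

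**Figure D1:**
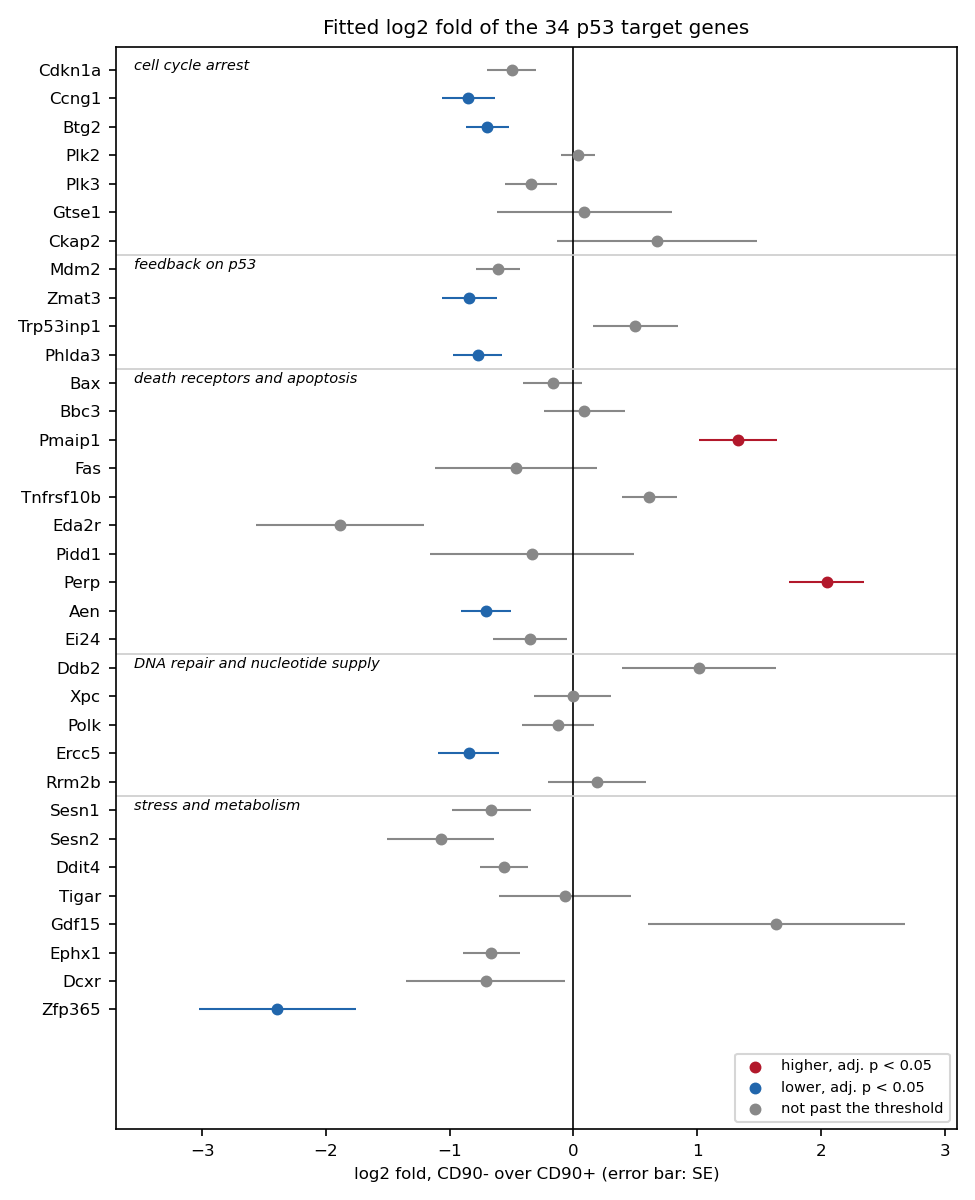
Fitted log2 fold of CD90-negative over CD90-positive for each of the 34 members (points, with the standard error as bars), ordered by role from top to bottom. The 7 members called lower lie between -2.40 and -0.70, and the 2 called higher at 1.33 and 2.05.

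Of 7 members grouped under cell cycle arrest, not all of which halt the cycle, 2 were called lower and 0 higher. Cdkn1a encodes p21, the inhibitor of cyclin-dependent kinases through which p53 arrests the cycle. Its level was 14.97, 23.2, 17.6, 23.6 and 13.6 CPM in CD90-negative pools 1 to 5 and 32.1, 37.2, 19.1, 31.1 and 15.4 CPM in CD90-positive pools 1 to 5. It was lower in every pool, but the groups overlapped, since the CD90-positive libraries of pools 3 and 5 lay within the CD90-negative range. With a log2 fold of -0.50 (SE 0.20), Cdkn1a did not pass the threshold (edgeR adjusted p = 0.138, unadjusted p = 0.0311). By transcript, Cdkn1a-201, which starts 2793 bases downstream of the first annotated start, carried 62.8% of the Cdkn1a level in CD90-negative and 71.1% in CD90-positive libraries. The transcript next to the element printed above, Cdkn1a-202, was detected in 1 CD90-negative library (9.83 CPM, pool 4) and in 4 CD90-positive libraries (0.457 to 3.05 CPM).

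Ccng1 encodes cyclin G1, a partner of the phosphatase that acts on Mdm2. It was at 21.9, 11.4, 41.1, 24.0 and 10.2 CPM in CD90-negative pools 1 to 5 against 39.4, 31.7, 44.5, 38.0 and 23.0 CPM. Each pool was lower in the CD90-negative fraction, by little in pool 3 (-0.11 on the log2 scale) and most in pool 2 (-1.44), and the groups overlapped. Cyclin G1 had a log2 fold of -0.85 (SE 0.21, edgeR adjusted p = 0.0285), a call lost without pool 1, 2, 4 or 5.

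Btg2, an antiproliferative factor that promotes mRNA deadenylation, was the member with the highest mean CPM in both fractions. It was at 69.0, 68.8, 136, 102 and 74.2 CPM in CD90-negative and 146, 142, 169, 188 and 82.7 CPM in CD90-positive pools 1 to 5. The CD90-positive library of pool 5 lay among the CD90-negative ones, and all other CD90-positive libraries were above every CD90-negative one. The log2 fold was -0.70 (SE 0.17, edgeR adjusted p = 0.0282), and the call was lost without pool 1, 2 or 4. In the model with the mitochondrial rRNA share it was 0.07 (SE 0.50, adjusted p = 0.981).

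The other 4 members of this group did not pass. Plk2, a polo-like kinase, was near equal at 48.4 ± 6.69 and 47.2 ± 6.86 CPM (mean ± SD of 5 libraries; log2 fold 0.04, SE 0.14), and Plk3 had -0.34 (SE 0.21). Gtse1 and Ckap2, which are made in G2 and mitosis, were low at 0.491 to 4.43 and 0 to 9.92 CPM, with log2 folds of 0.09 (SE 0.71) and 0.67 (SE 0.81).

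Among the genes that act back on p53 or on its survival signals, 3 of 4 were lower in all 5 pools. Mdm2 was at 31.9, 41.3, 36.5, 32.0 and 26.7 CPM in CD90-negative and 43.4, 49.6, 48.7, 49.8 and 66.3 CPM in CD90-positive pools 1 to 5. The groups did not overlap, the lowest CD90-positive library (43.4) lying above the highest CD90-negative one (41.3). Mdm2 had a log2 fold of -0.61 (SE 0.18), just outside the threshold (edgeR adjusted p = 0.0532). It was called by DESeq2, by limma-voom and under 3 other settings, and its direction was the same in every setting tried. Mdm2 was not called in any fit that left out 1 pool (edgeR adjusted p = 0.0672 to 0.138, log2 fold -0.70 to -0.46). Without pools 4 and 5 its log2 fold was -0.41 (SE 0.18, edgeR adjusted p = 0.264).

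Zmat3 encodes an RNA-binding zinc finger protein that regulates splicing. It was at 11.8, 9.62, 13.6, 7.80 and 6.83 CPM in CD90-negative against 22.3, 17.5, 17.8, 20.4 and 10.8 CPM in CD90-positive pools 1 to 5. The groups overlapped only through the CD90-positive library of pool 5. Its log2 fold was -0.84 (SE 0.22, edgeR adjusted p = 0.0359), a call lost without pool 1, 2 or 4, and 0.05 (SE 0.66, adjusted p = 0.988) in the model with the mitochondrial rRNA share.

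Phlda3, a small pleckstrin homology protein that restrains Akt, was at 15.5, 16.3, 10.5, 13.3 and 14.9 CPM against 32.0, 18.6, 20.04, 24.4 and 26.1 CPM. Every CD90-positive library was above every CD90-negative one. Its log2 fold was -0.77 (SE 0.20, edgeR adjusted p = 0.0315), and the call was lost without pool 1, 3, 4 or 5 and kept without pool 2 and without the block. Trp53inp1, a stress protein that aids p53 phosphorylation, had a log2 fold of 0.50 (SE 0.34, edgeR adjusted p = 0.401).

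**Figure D2:**
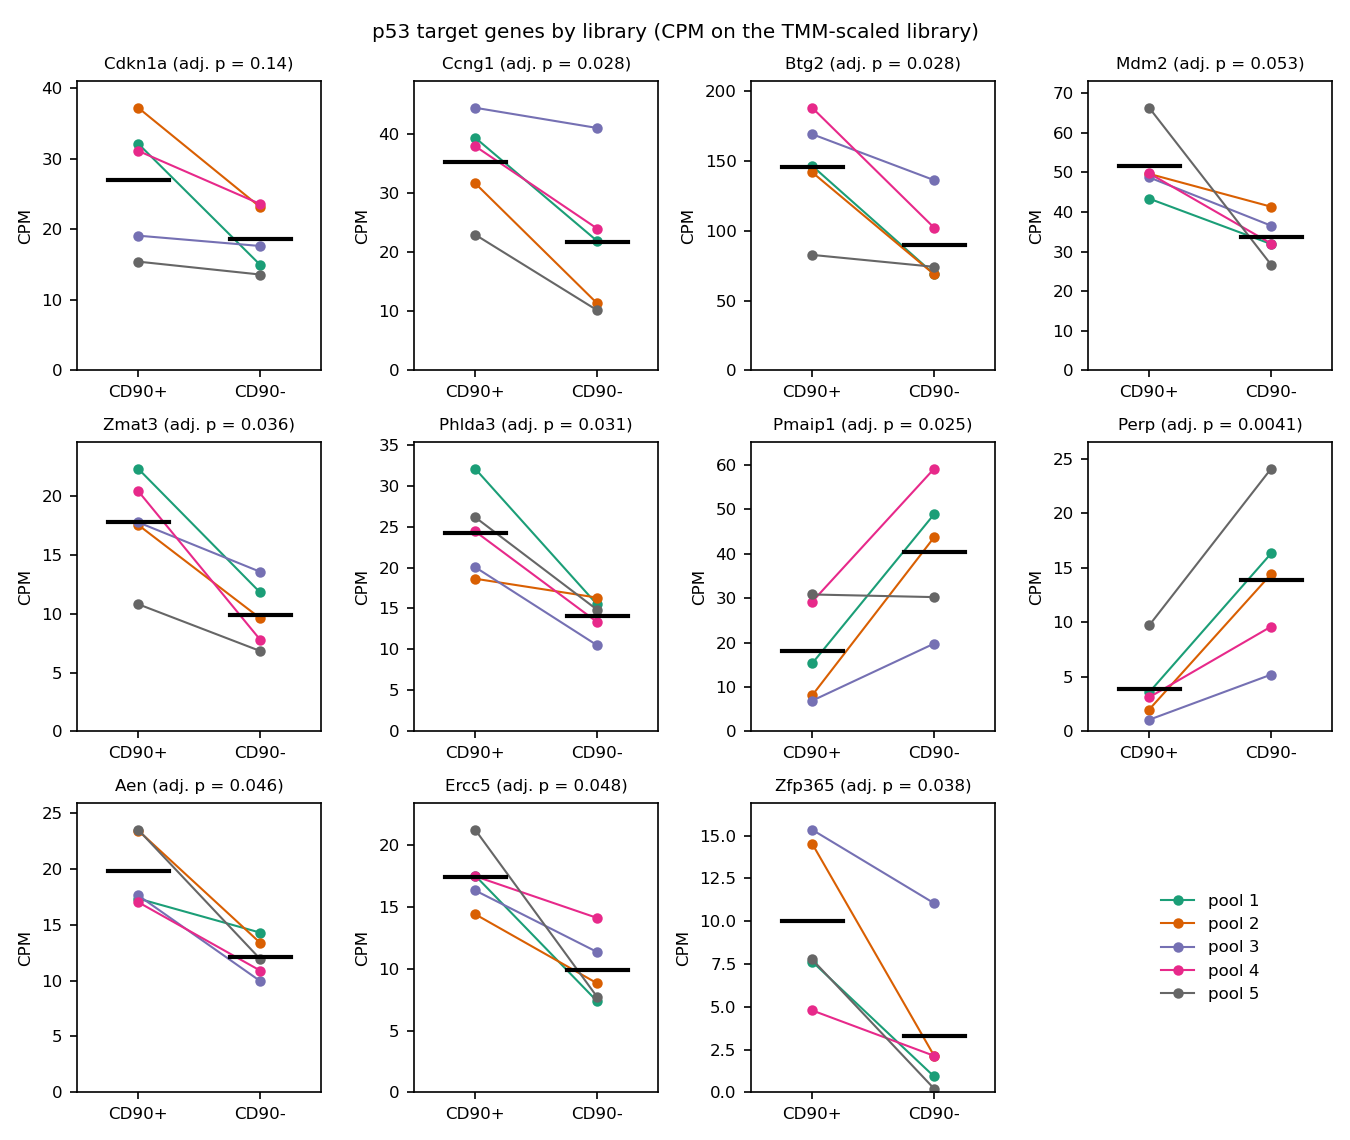
Level in CPM (vertical axis, starting at 0) of the 9 called members and of Cdkn1a and Mdm2 in each library, with a line joining the CD90+ and CD90- libraries of a pool and a black bar at the mean of 5 libraries. Mdm2, Phlda3, Aen and Ercc5 do not overlap between the fractions, and Pmaip1 is flat in pool 5 (30.8 and 30.3 CPM).

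Death genes went both ways. Perp, a membrane protein that p53 induces in apoptosis and that also forms part of desmosomes in stratified epithelia, was at 16.3, 14.4, 5.21, 9.61 and 24.1 CPM in CD90-negative and 3.59, 2.01, 1.07, 3.13 and 9.73 CPM in CD90-positive pools 1 to 5. It was higher in 5 of 5 pools, and the groups overlapped because the CD90-positive library of pool 5 exceeded the CD90-negative ones of pools 3 and 4. Perp had a log2 fold of 2.05 (SE 0.30, edgeR adjusted p = 0.00408), or 4.13-fold, and lost its call without the block and in the model with the mitochondrial rRNA share. Both fractions had their lowest Perp level in pool 3 and their highest in pool 5, and the summed epithelial markers were also lowest in pool 3 (718 and 180 CPM) and highest in pool 5 (3015 and 1629 CPM). The log2 difference of Perp in pools 1 to 5 was 2.04, 2.57, 1.86, 1.48 and 1.27. It did not follow the order of the epithelial markers' median difference (3.52, 0.93, 2.23, 2.29 and 0.95), which was smallest in pool 2.

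Pmaip1 encodes Noxa, a BH3-only protein that neutralises Mcl1. It was at 48.9, 43.7, 19.8, 59.2 and 30.3 CPM in CD90-negative and 15.3, 8.13, 6.92, 29.2 and 30.8 CPM in CD90-positive pools 1 to 5. It was higher in pools 1 to 4 and level in pool 5, and the groups overlapped. Its log2 fold was 1.33 (SE 0.32, edgeR adjusted p = 0.0253), and it was called without pool 5 but not without pool 1, 2, 3 or 4.

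Aen, a nuclease that enhances apoptosis, was at 14.3, 13.4, 9.96, 10.9 and 11.9 CPM in CD90-negative and 17.3, 23.4, 17.6, 17.0 and 23.5 CPM in CD90-positive pools 1 to 5. The groups did not overlap. Aen had a log2 fold of -0.71 (SE 0.20, edgeR adjusted p = 0.0458), a call lost without any 1 of the 5 pools.

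None of the 3 members of the TNF receptor family passed in edgeR, and 2 had an unadjusted p under 0.05. DESeq2 called Eda2r. Tnfrsf10b, a receptor for the ligand TRAIL, was at 20.3, 17.4, 14.8, 12.3 and 19.7 CPM in CD90-negative and 8.99, 10.0, 12.2, 9.82 and 13.9 CPM in CD90-positive pools 1 to 5. It was higher in 5 of 5 pools, although the groups overlapped (log2 fold 0.61, SE 0.22, edgeR adjusted p = 0.106). Eda2r, a TNF receptor family member, was at 0.379, 2.48, 4.34, 1.28 and 0.0739 CPM against 5.45, 4.21, 5.58, 5.10 and 0.688 CPM, lower in 5 of 5 pools (log2 fold -1.88, SE 0.68, edgeR adjusted p = 0.103). It rested on 2 to 370 reads a library. Fas had a log2 fold of -0.46 (SE 0.65).

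Of the remaining apoptosis genes none was called by edgeR or at an unadjusted p under 0.05. Bax, which permeabilises the mitochondrial outer membrane, was at 10.3 ± 3.94 against 11.1 ± 2.65 CPM (log2 fold -0.17, SE 0.24), and Bbc3, which encodes Puma, at 6.11 ± 1.79 against 5.74 ± 1.68 CPM (log2 fold 0.09, SE 0.32; SD, n = 5). Pidd1 and Ei24 had log2 folds of -0.34 (SE 0.82) and -0.35 (SE 0.30). Missing the threshold does not show equal levels.

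Of the 5 repair genes, Ercc5 was called. It encodes the XPG endonuclease of nucleotide excision repair and was at 7.37, 8.82, 11.3, 14.1 and 7.72 CPM in CD90-negative and 17.5, 14.4, 16.3, 17.5 and 21.2 CPM in CD90-positive pools 1 to 5. The groups did not overlap, with 14.1 and 14.4 CPM as the nearest libraries. Ercc5 had a log2 fold of -0.85 (SE 0.24, edgeR adjusted p = 0.0477), a call lost without any 1 of the pools and with DESeq2's size factors in edgeR. The damage sensors Ddb2 and Xpc had log2 folds of 1.02 (SE 0.62) and -0.01 (SE 0.31). Polk, a translesion polymerase, had -0.12 (SE 0.29) and Rrm2b, a ribonucleotide reductase subunit, 0.19 (SE 0.40).

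Of the 8 stress and metabolic members, 7 had a log2 fold below 0 and 1 was called. Zfp365, a zinc finger protein linked to genome stability, was at 0.929, 2.15, 11.0, 2.14 and 0.222 CPM in CD90-negative and 7.64, 14.5, 15.3, 4.79 and 7.76 CPM in CD90-positive pools 1 to 5. The CD90-negative library of pool 3 stood among the CD90-positive ones, and the other 4 were below all of them. Its log2 fold was -2.40 (SE 0.64, edgeR adjusted p = 0.0380), the largest decrease in the list and 5.26-fold in size, on 6 to 1017 reads a library. The call was lost without pool 1, 2 or 4 and in limma-voom.

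The growth-restraining stress genes Sesn1, Sesn2 and Ddit4 had lower means but lay outside the threshold. Sesn2, a leucine sensor that inhibits mTORC1, was at 4.04 ± 1.89 against 7.91 ± 2.42 CPM (log2 fold -1.07, SE 0.43, edgeR adjusted p = 0.144), called without pool 5, and its log2 fold was 1.66 (SE 1.01, adjusted p = 0.752) in the model with the mitochondrial rRNA share. Sesn1, its relative, was lower in 5 of 5 pools (log2 fold -0.66, SE 0.32, adjusted p = 0.220). Ddit4, another mTORC1 inhibitor, was at 22.1 ± 9.45 against 30.9 ± 9.55 CPM (log2 fold -0.56, SE 0.19, edgeR adjusted p = 0.0882; SD, n = 5).

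Ephx1, an epoxide hydrolase, had a log2 fold of -0.67 (SE 0.23, edgeR adjusted p = 0.0910), which was 0.12 (SE 0.71, adjusted p = 0.972) in the model with the mitochondrial rRNA share. Dcxr, a carbonyl reductase, had -0.71 (SE 0.64) and Tigar, which lowers glycolytic flux, -0.07 (SE 0.54). The stress cytokine Gdf15 was barely detected, at 0 to 3.42 CPM on 0 to 102 reads a library, and was at 0 in both libraries of pool 5 (log2 fold 1.64, SE 1.04).

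Between pools, the differences did not follow 1 order. The members called lower were closest to 0 in pool 3 for Ccng1 (-0.11), Zmat3 (-0.38) and Zfp365 (-0.46), but in pool 2 for Phlda3 (-0.19), in pool 1 for Aen (-0.27), in pool 4 for Ercc5 (-0.30) and in pool 5 for Btg2 (-0.16). The fibroblast markers had a median log2 difference of -2.14, -2.81, -0.77, -1.85 and -3.36 and the epithelial markers of 3.52, 0.93, 2.23, 2.29 and 0.95 in pools 1 to 5.

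**Figure D3:**
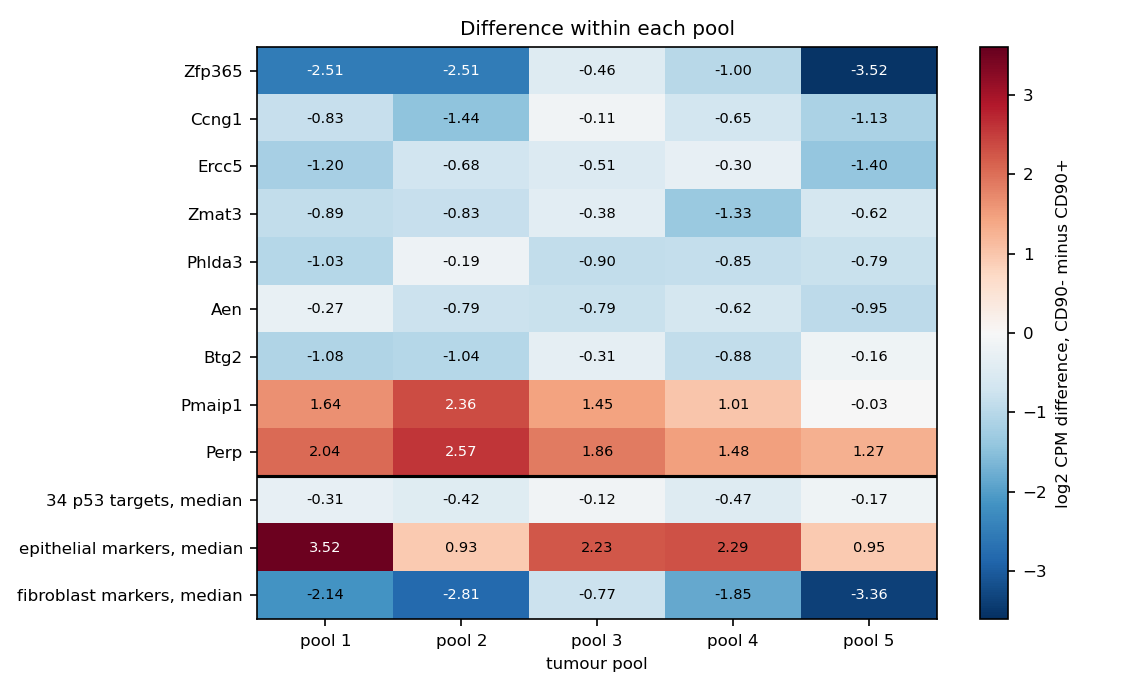
Log2 CPM difference, CD90- minus CD90+, within each of the 5 pools (columns) for the 9 called members, with the median over the 34 members and over the epithelial and fibroblast markers (rows; blue lower and red higher in CD90-). The fibroblast markers differ least in pool 3 (-0.77), where Ccng1, Zmat3 and Zfp365 are also closest to 0. The other members called lower, Phlda3, Aen, Ercc5 and Btg2, are closest to 0 in other pools.

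Levels of different members were compared per transcript length, by the deposited TPM (transcript abundance scaled to length and library) and within a fraction, because the mitochondrial share enters TPM. In CD90-positive libraries Btg2 was highest, with a median TPM of 13.8 (6.10 to 21.8), followed by Mdm2 at 9.54 (6.85 to 11.1) and Plk2 at 5.83 (3.82 to 8.81), ranges that overlap between neighbours. Cdkn1a ranked 5, at 3.77 (1.61 to 5.37). In CD90-negative libraries Btg2 (3.63), Plk2 (3.23), Pmaip1 (2.74) and Mdm2 (2.57) led, again with overlapping ranges. Perp ranked 14 of 34 in CD90-negative and 29 of 34 in CD90-positive libraries, and Pmaip1 ranked 3 and 16. Gdf15 was last in both, at medians of 0.0311 and 0.0730.

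**Figure D4:**
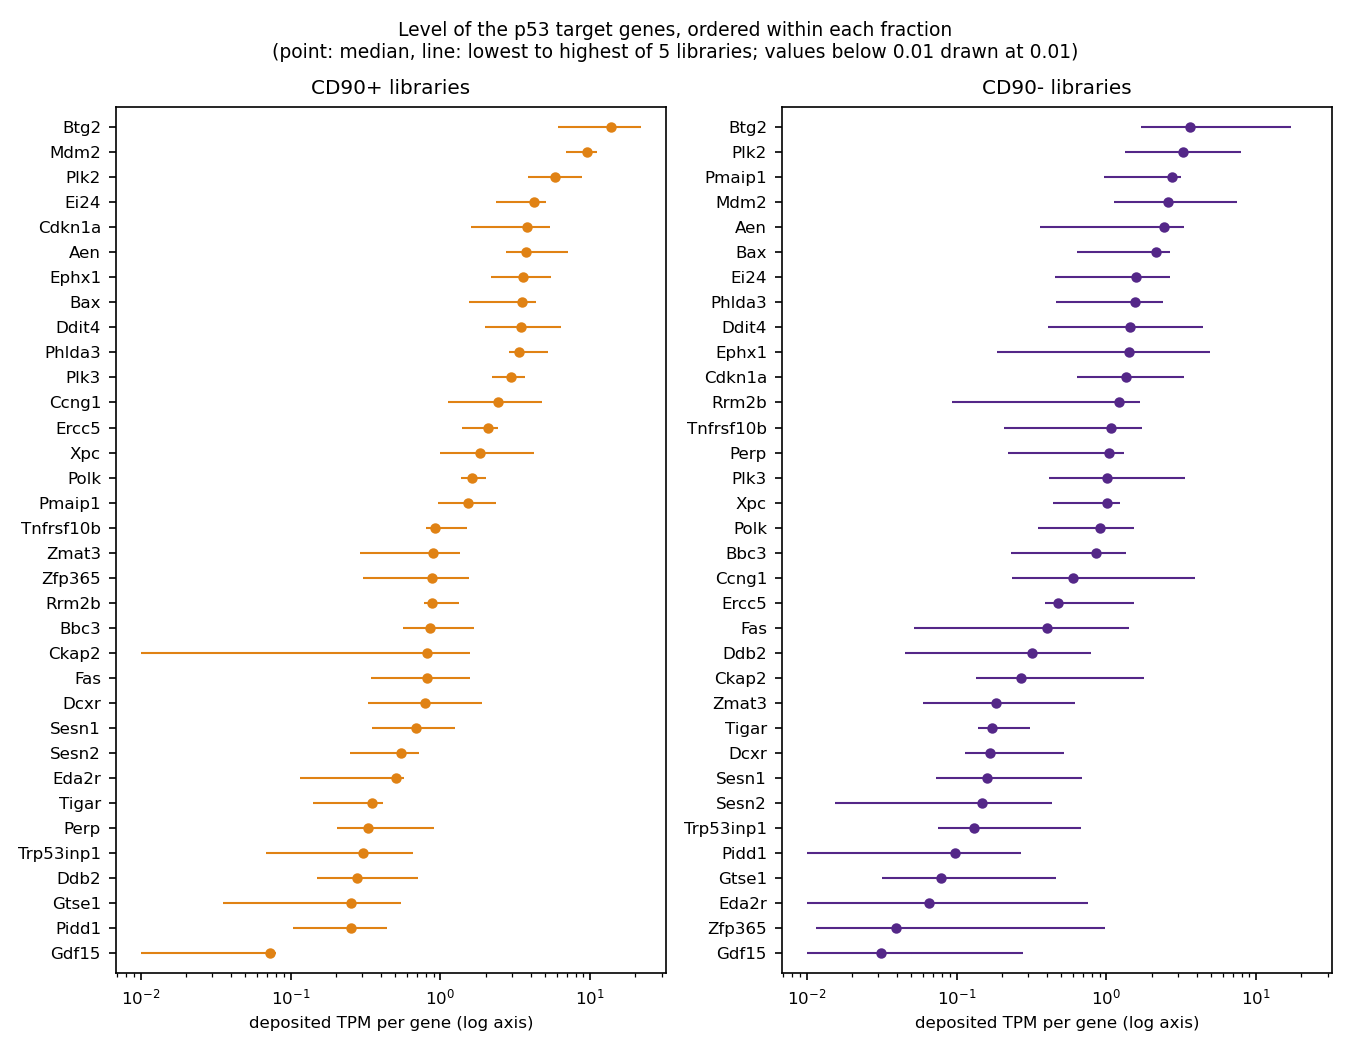
Deposited TPM summed per gene (log axis) for the 34 members, ordered by the median of 5 libraries within the CD90+ fraction (left) and the CD90- fraction (right); lines run from the lowest to the highest library. Btg2 is at the top of both orders and Gdf15 at the bottom, and neighbours in both orders mostly overlap.

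Trp53 and the regulators of p53, taken as 1 list, were mostly not called, with 2 of 18 tested called higher (11.1%, against 5.83% of all genes) and 0 lower. At an unadjusted p under 0.05 were 5 higher (Cdkn2a, Hipk2, Atm, Rchy1 and Ep300) and 1 lower (Mdm4), and 5 of 18 were higher in all 5 pools (27.8%, against 13.5% of all genes). Trp53 itself was at 24.9, 22.2, 31.4, 17.6 and 23.5 CPM in CD90-negative and 21.8, 21.6, 22.9, 18.0 and 10.8 CPM in CD90-positive pools 1 to 5 (log2 fold 0.35, SE 0.21, edgeR adjusted p = 0.341). Cdkn2a, whose products are p16Ink4a and the Mdm2 inhibitor p19Arf, was at 41.1, 41.9, 6.47, 50.8 and 52.1 CPM against 7.36, 7.53, 2.55, 12.2 and 28.1 CPM, higher in 5 of 5 pools (log2 fold 1.85, SE 0.27, edgeR adjusted p = 0.00377). This call was kept in each fit without 1 pool and lost without the block and in the model with the mitochondrial rRNA share. Of its level, 96.7% and 93.4% fell on Cdkn2a-202, the transcript with the upstream first exon that encodes p19Arf. The kinase gene Hipk2 was also higher (log2 fold 0.66, SE 0.19, edgeR adjusted p = 0.0492), a call lost without any 1 of the pools. As with Perp, both fractions had their lowest Cdkn2a level in pool 3 and their highest in pool 5, the pools with the lowest and the highest summed epithelial markers. By pool, the log2 difference of Cdkn2a was 2.40, 2.40, 1.19, 2.01 and 0.88. That of the epithelial markers had a median of 3.52, 0.93, 2.23, 2.29 and 0.95. The part of epithelial cells was not tested. Trp63 and Trp73 were too low to be tested.

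Among further p53 targets outside the member list, more were lower than higher. This list was chosen with earlier results of these data known, so it gives no independent support to the pattern of the members. Of 18 tested, 5 were called lower (27.8%, against 7.05% of all genes) and 1 higher (5.56%, against 5.83%), with a median log2 fold of -0.69. Ak1, an adenylate kinase, was at 10.7, 13.5, 30.4, 8.97 and 3.99 CPM against 73.2, 64.5, 68.3, 72.5 and 73.3 CPM, with no overlap (log2 fold -2.66, SE 0.40, edgeR adjusted p = 0.00583). Among the others that fell were Ptprv (log2 fold -2.59), a receptor-type phosphatase, Pltp (-2.17), a phospholipid transfer protein, and the transcription factor Klf4 (-1.09). Sfn, an epithelial 14-3-3 protein, was higher at 61.4 ± 44.5 against 27.5 ± 21.5 CPM (mean ± SD, n = 5; log2 fold 1.07, SE 0.22, edgeR adjusted p = 0.0115). Without the block 2 of these 18 genes were called, and 2 without pool 1. Ak1 and Pltp lost their call only in the model with the mitochondrial rRNA share, while Klf4 lost it also without pool 1, Ptprv without pool 1, 2 or 4 and Sfn without pool 1 or 4.

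Genes that p53 lowers through p21 and the DREAM repressor complex, which act in S phase and mitosis, were not called. Of 16 tested, 0 passed in edgeR (1 at an unadjusted p under 0.05), 0 in limma-voom and 1 in DESeq2, with a median log2 fold of 0.08. Mki67, the proliferation marker, was at 166 ± 68.5 against 141 ± 58.1 CPM (mean ± SD, n = 5; log2 fold 0.26, SE 0.17, edgeR adjusted p = 0.398).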

How the data were processed

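RNA-seq of 10 libraries (5 tumour pools, CD90+ and CD90- fractions) was analysed. The authors deposited an estimated count and a TPM for each transcript. The submitters' processing notes list Salmon 1.9.0 with GRCm39 and mm39. Annotation release and strand setting: not given in the sources used here. Deposited effective lengths entered 1 alternative only. Per the labels' protocols, a stranded SMART-Seq kit was used on little RNA of varied integrity, with cDNA cycles set by yield; no molecular identifiers are mentioned, so PCR copies may be among the reads. Transcripts were matched without version to GENCODE M21 (133666 of 144584, 92.4%; unmatched ones held 3.63% to 12.1% of counts), summed per gene and rounded. Promoter sequences are from RefSeq (GRCm38.p6), with no other coordinates used.

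The test was edgeR 4.0.16 in R 4.3.3 (filterByExpr, TMM, robust glmQLFit, glmQLFTest) with the pool as a block, because both fractions of a pool carry the same animal numbers; Benjamini-Hochberg adjustment was over all 15378 genes, at a threshold of 0.05. Within a pool, both libraries' deviations from their group means had correlations of 0.0513, 0.0289, 0.538, 0.0595 and 0.271 (pools 1 to 5); the pairing thus rests on the shared animals. P-values rest on how the difference between the fractions of a pool varied from pool to pool, since the block takes out the spread of levels between pools. CPM use the TMM-scaled library; differences by pool use log2(CPM + 0.5). The alternatives included DESeq2 1.42.0 and limma 3.58.1. On counts simulated for this comparison over 15378 genes, 20.9% of genes changed 2-fold and 57.1% of those changed 4-fold were recovered. The simulation changed only 91 genes at each fold, with an assumed spread between pools, whereas 1980 genes were called in the data. Recovery in the data can therefore differ from these rates. Every member is accounted for; members at an unadjusted p under 0.05, called genes of the other lists and Trp53 are named with their values, except 1 called gene that is not reported here. The members and lists were chosen with earlier results of these data known. Exons of Cdkn1a, Ddb2, Ei24, Plk3, Rrm2b and Tigar overlap a gene on the opposite strand and those of Bax and Ephx1 one on the same strand, so their counts are less certain.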

Additional observations from a re-analysis of the deposited data

Results flagged for a closer look

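In each fraction, the log2(CPM + 0.5) level of each of the 34 members was searched for 1 library far from the other 4, by the gap to the nearest library over the range of the group (Dixon's criterion, 0.71 for 5 samples). Of 68 groups examined, 4 met it, and chance alone gives about 1 in 20. In the CD90-positive library of pool 5, Trp53inp1 was at 2.26 CPM against 6.08 to 6.52 CPM in the other 4 libraries (ratio 0.93), Eda2r at 0.688 against 4.21 to 5.58 CPM (0.844) and Tigar at 6.48 against 1.81 to 2.36 CPM (0.806). In the CD90-negative library of pool 4, Pidd1 was at 0.107 against 2.31 to 3.10 CPM (0.862). Nuclear protein-coding counts were lowest in these 2 libraries within each fraction, at 4.57 and 3.71 M. The part of depth in these values was not tested.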

How the results depend on the processing

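Pools are blocks because both fractions share animals. Without that block the calls were 421 higher and 544 lower over all genes, 0 and 1 members, 0 of the p53 regulators and 2 of the further targets. With mitochondrial rRNA share in the model each of these was 0 (882 genes at an unadjusted p under 0.05), and 4 of the 16 members at an unadjusted p under 0.05 changed sign without a call, Btg2 (0.066), Ephx1 (0.12), Sesn2 (1.66) and Zmat3 (0.052). The share was higher in the CD90-negative library of every pool, so this model can hardly separate it from the fraction. The cause of the changes was not tested. DESeq2 called 1623 and 1809 genes and 1 DREAM target, as did edgeR with no filter on low counts for that list. With a length offset 4 members were called lower, and Aen, Ercc5 and Phlda3 lost their call. Without pools 4 and 5 the numbers were 357 and 184 genes, 0 members lower, 1 regulator and 3 further targets. Leaving out 1 pool gave 308 to 820 genes higher and 367 to 1199 lower, 1 to 2 members higher and 0 to 4 lower, 1 regulator, 2 to 7 further targets and 0 DREAM targets. At an adjusted p of 0.01, 1 member was higher and 0 lower. The 9 called members kept their direction in every setting tried in which they were tested, except Btg2 and Zmat3 with that share. Depth limits the rarest members: Gdf15, Ckap2, Pidd1, Eda2r, Fas, Gtse1 and Zfp365 had under 10 reads in at least 1 library, and most calls lay near the threshold.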

Other observations

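Transcript estimates add detail on 2 members. A retained-intron transcript of Zfp365 held 12.6% of the Zfp365 level in CD90-negative and 33.3% in CD90-positive libraries, and was at 0 in 2 CD90-negative libraries. The Mdm2 transcript with the largest share, the coding Mdm2-201, held 50.2% and 45.4% of the Mdm2 level, at 16.9 ± 3.89 against 23.4 ± 11.6 CPM (mean ± SD, n = 5). Unlike the gene sum it overlapped between the fractions. In pool 1 it was higher in the CD90-negative library (21.2 against 6.60 CPM), and in every other pool it was lower there. A retained-intron transcript of Mdm2 held 12.0% and 21.4% (4.05 ± 2.06 against 11.0 ± 5.42 CPM). Another retained-intron transcript of Mdm2 held 15.2% and 9.55% (5.11 ± 2.01 against 4.92 ± 3.44 CPM). These are Salmon's divisions of shared reads among transcripts and were not tested.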
